A study of Mus musculus with 8 samples.

Results

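The genes described here are Snora73b, a small nucleolar RNA (snoRNA), and host genes of snoRNAs, namely Snhg3, Snhg1, Snhg5, Snhg6, Snhg8, Snhg9, Snhg12 and Gas5. They were selected by symbol from the 54146 gene rows of the count tables, and 9 of the 10 names on the list had a row. Snhg4 had no row under that symbol in the annotation and was not analysed here. The list was chosen on their values in these same tables, so every level, share and ratio of them below is a description and carries no test.

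Single-cell RNA-seq was performed on mouse embryonic stem (mES) cells, in an untreated control and after CX-5461, an inhibitor of RNA polymerase I. In both conditions the ES cells, derived from the inner cell mass, grew in LIF/2i on gelatin with mouse embryonic fibroblast (MEF) feeders, which are non-ES cells and are present in the libraries. The labels list 4 samples per condition, but the barcodes do not show which sample a cell came from and the study's supplement gives 1 biological replicate, so each condition was taken as 1 library, and differences between libraries and between treatments cannot be told apart. The dose and time of CX-5461 for these libraries are not given in the labels.

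snoRNAs are short nuclear RNAs that guide or assist the maturation of ribosomal RNA, and box H/ACA snoRNAs such as Snora73b end in an ACA box close to the 3′ end. In vertebrates most of them lie in introns and are released by trimming of the spliced-out intron, while the exons are joined into the host RNA. Snora73b belongs to the U17 family, which takes part in the cleavage of the precursor of 18S rRNA rather than in base modification. Host genes of the Snhg series and Gas5 give spliced RNAs with little coding capacity, many of which are degraded by nonsense-mediated decay when they are translated. A 3′ poly(A)-primed library therefore counts hosts and snoRNAs by different routes, since mature snoRNAs carry no poly(A) tail.

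Snora73b (ENSMUSG00000065353.1) lies at chr4:132352322-132352526 on the minus strand of GRCm38, within intron 2 of a 3-exon transcript of its host Snhg3 (ENSMUSG00000085241.7, chr4:132348014-132353686, minus strand). It ends 78 bases before exon 3 and overlaps no exon of the 5 annotated Snhg3 transcripts or of Rcc1. Its near copy Snora73a (chr4:132352775-132352979, minus strand) lies in intron 1 of the same transcript and overlaps an exon of 1 of the 5 Snhg3 transcripts. The protein-coding gene Rcc1 (chr4:132331919-132353605, minus strand) spans both snoRNAs and shares exon sequence with Snhg3, so reads in the shared exons cannot be assigned to one of them with certainty. The snoRNA sequences are shown because the identity of the Snora73b row rests on them, with the ACA box and the 3 last bases in capitals:
Snora73b: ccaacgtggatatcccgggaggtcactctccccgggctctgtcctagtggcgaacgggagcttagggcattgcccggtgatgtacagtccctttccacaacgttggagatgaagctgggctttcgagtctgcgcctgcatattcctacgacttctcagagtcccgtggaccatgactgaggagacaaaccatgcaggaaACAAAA
Snora73a: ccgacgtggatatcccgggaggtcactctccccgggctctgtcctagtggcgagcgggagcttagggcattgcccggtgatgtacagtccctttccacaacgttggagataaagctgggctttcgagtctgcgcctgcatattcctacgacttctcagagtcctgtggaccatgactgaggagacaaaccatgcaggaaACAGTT

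Both have 205 bases and 198 of them are identical (96.6%). Counted from 1 at the 5′ end, with the base of Snora73b first, the 7 differences are A3G, A54G, G111A, C164T, A203G, A204T and A205T, so 3 of the 7 are the 3 last bases. Snora73b ends in 4 A, as do 18 of 1507 annotated snoRNA sequences (1.19%). In deep ES cells 37 of the 1507 had a UMI, of which 3 were among these 18 and 34 among the others. Snora73b, from which the ending was taken, is itself among the 3, so nothing is read from this count. Snora73a had 0 UMIs in every barcode of both tables, and neither row had a count marked as shared with another gene. Reads that match both copies may have been split or dropped in the authors' counting, so a Snora73b count stands for reads that the authors' pipeline assigned to this copy.

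**Figure D1:**
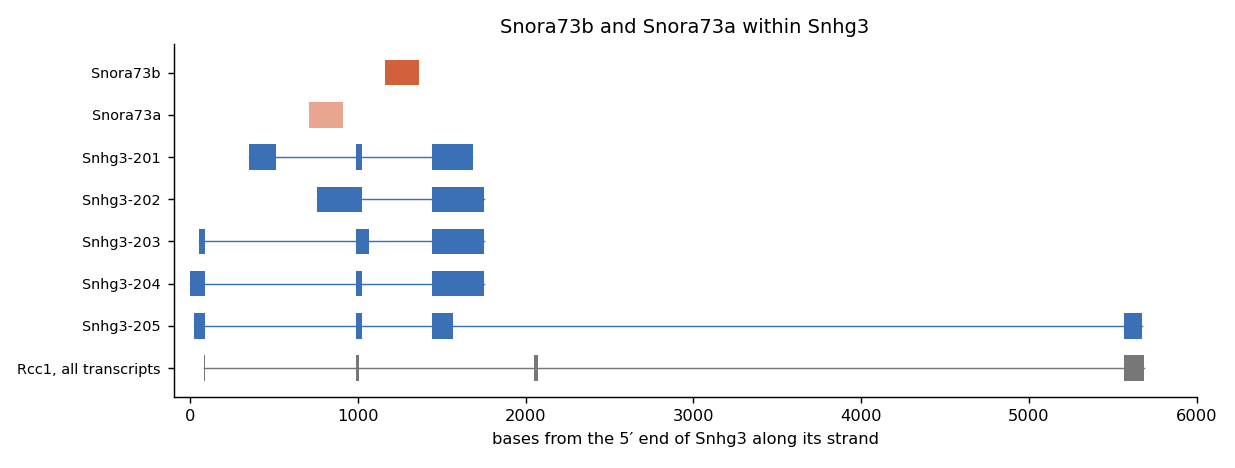
Exons (boxes) of the 5 Snhg3 transcripts and of Rcc1, and the 2 snoRNA genes, drawn to scale in bases from the 5′ end of Snhg3 along its strand; Rcc1 goes on to the right. Snora73b sits in an interval with no exon of any of the 5 transcripts, whereas Snora73a overlaps an exon of 1 of them.

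The host genes are known for an oligopyrimidine tract at their transcription start, the feature of genes whose translation follows growth signals, so the starts are shown for the 7 hosts with a RefSeq promoter entry (GRCm38). Each run has 10 bases before and 20 bases from the start on the transcript strand, and capitals mark a C followed by at least 5 bases that are each C or T.
Snhg3 (chr4:132353667-132353696, minus): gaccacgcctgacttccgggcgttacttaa
Snhg1 (chr19:8723477-8723506, plus): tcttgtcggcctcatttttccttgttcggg
Snhg5 (chr9:88522878-88522907, minus): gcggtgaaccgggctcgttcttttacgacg
Snhg8 (chr3:123508317-123508346, minus): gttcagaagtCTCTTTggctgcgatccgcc
Snhg9 (chr17:24719946-24719975, minus): aCTTTCCCTCgccgaagccgcgccctacac
Snhg12 (chr4:132308668-132308697, plus): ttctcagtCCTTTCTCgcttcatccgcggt
Gas5 (chr1:161034591-161034620, plus): gcgggcccgcgagctcgacagcccggagcc

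The run was found, at any place in the window, in 3 of the 7 windows, those of Snhg8, Snhg9 and Snhg12. It was found in 22.0% of the 32851 windows of all RefSeq promoters. In Snhg8 it began at the annotated start, and in Snhg12 before the start and ran across it. In Snhg9 it lay wholly before the start, so there it is not a tract of the transcript by this annotation. A match is a description of these letters and depends on the annotated start. That start lay 179 bases from the GENCODE start for Gas5, 68 for Snhg8 and 55 for Snhg12. It lay 32 bases away for Snhg5, 12 for Snhg1 and 0 for Snhg3 and Snhg9.

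The control library held 3838 barcodes and 49610287 UMIs (unique molecular identifiers, 1 per captured RNA) and the CX-5461 library 4922 barcodes and 69841836 UMIs. After removal of cells under 500 UMIs or over 20% mitochondrial UMIs, 3767 and 4697 cells remained. Feeder cells were those of a cluster led by fibroblast genes such as Col3a1 and Col1a2, with 216 control and 162 CX-5461 cells. Deep ES cells had at least 5000 UMIs and at most 10% mitochondrial UMIs, with 2449 control and 4014 CX-5461 cells of median 15685 and 14690 UMIs. Shallow cells had under 5000 UMIs, with 1095 and 195 cells of median 2255 and 4164 UMIs, and their median mitochondrial share was 12.2% and 15.8%. The remaining 7 control and 326 CX-5461 cells, with at least 5000 UMIs and over 10% mitochondrial UMIs, are in none of these classes and had 0 Snora73b UMIs. All 10 ES markers were detected in deep ES cells of both libraries (summed level 7834 and 8329 CPM, the count per 1e+06 UMIs of the class). The 12 fibroblast markers summed to 228 and 306 CPM there and to 5356 and 11366 CPM in feeder cells. Markers of keratinocytes, a cell type that the labels do not name, summed to 0.0948 CPM in control and 41.0 CPM in CX-5461 deep ES cells, with Dsg3 at 0 in both, and their part in the values below was not tested. Pou5f1, which fibroblasts lack, stood in feeder cells at 5.55% of its deep ES level in the control and 2.85% after CX-5461, and Col1a1 in deep ES cells at 0.259% and 0.726% of its feeder level. These values mark the level of free or carried-over RNA for the shares below.

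Few Snora73b UMIs were captured from deep ES cells after CX-5461. Since mature snoRNAs carry no poly(A) tail, the level of the snoRNA itself was not measured. The control held 203 UMIs in 2449 cells, or 4.81 CPM (4.17 to 5.52, exact Poisson interval), and CX-5461 held 7 UMIs in 4014 cells, or 0.114 CPM (0.0457 to 0.234). All intervals here are at 95% and cover counting error only. The level was 42.4-fold lower (20.2 to 107, exact conditional binomial interval), a log2 ratio of -5.41. None of the 11668 genes tested in this class, those of 200 or more UMIs in all, had a lower ratio, but Snora73b passed that minimum, with 210 UMIs, only through the control, so its place in this order is no evidence beyond the values themselves. The median gene had a log2 ratio of 0.36, and relative to it Snora73b stood at -5.77 (-7.10 to -4.70).

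The 203 control UMIs were spread over many cells. One UMI each was found in 161 cells, 2 UMIs in 15 cells and 3 UMIs in 4 cells, and the 7 UMIs after CX-5461 came from 7 cells. No single cell therefore carried more than 1.48% of the control count. As shares, 7.35% of control deep ES cells and 0.174% of CX-5461 deep ES cells had a Snora73b UMI. When every cell was thinned to 5000 UMIs, the share was 2.53% (62 of 2449 cells, exact Clopper-Pearson interval 1.95 to 3.23) in the control and 0.0249% (1 of 4014 cells, upper bound 0.139) after CX-5461. In feeder cells thinned to the same depth no cell of 198 and no cell of 161 had a Snora73b UMI, with upper Clopper-Pearson bounds of 1.85% and 2.27%.

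Snhg3, the host, was close to its control level in CPM in the same cells. It had 528 UMIs or 12.5 CPM (11.5 to 13.6) in the control and 708 UMIs or 11.5 CPM (10.7 to 12.4) after CX-5461, a ratio of 0.918 (0.819 to 1.03). In CPM the interval holds 1. Set against the median gene its log2 ratio was -0.49 (-0.65 to -0.32), lower beyond counting error but short of the call at 1.5-fold. Per 100 Snhg3 UMIs there were 38.4 Snora73b UMIs in control deep ES cells and 0.989 after CX-5461. Of the UMIs of the pair, Snora73b took 27.8% (24.6 to 31.2) and 0.979% (up to 2.01), and the odds of a Snora73b UMI against a Snhg3 UMI were 38.9-fold lower (18.3 to 98.6) with CX-5461. This ratio is taken within the same cells and does not depend on the scaling of the libraries.

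The pair differed by cell depth as follows. In control cells of 5000 to under 10000, 10000 to under 20000 and 20000 or more UMIs, Snora73b stood at 5.65 (2.82 to 10.1), 5.54 (4.61 to 6.60) and 3.78 (2.92 to 4.80) CPM. In CX-5461 cells of the same ranges it had 0, 6 and 1 UMIs, which for the deeper ranges is 0.133 and 0.0741 CPM. Snhg3 in the control stood at 16.9, 11.6 and 13.2 CPM and after CX-5461 at 10.1, 11.0 and 13.3 CPM. The Snora73b intervals of the libraries did not overlap in any of the 3 ranges, whereas those of Snhg3 overlapped in each.

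**Figure D2:**
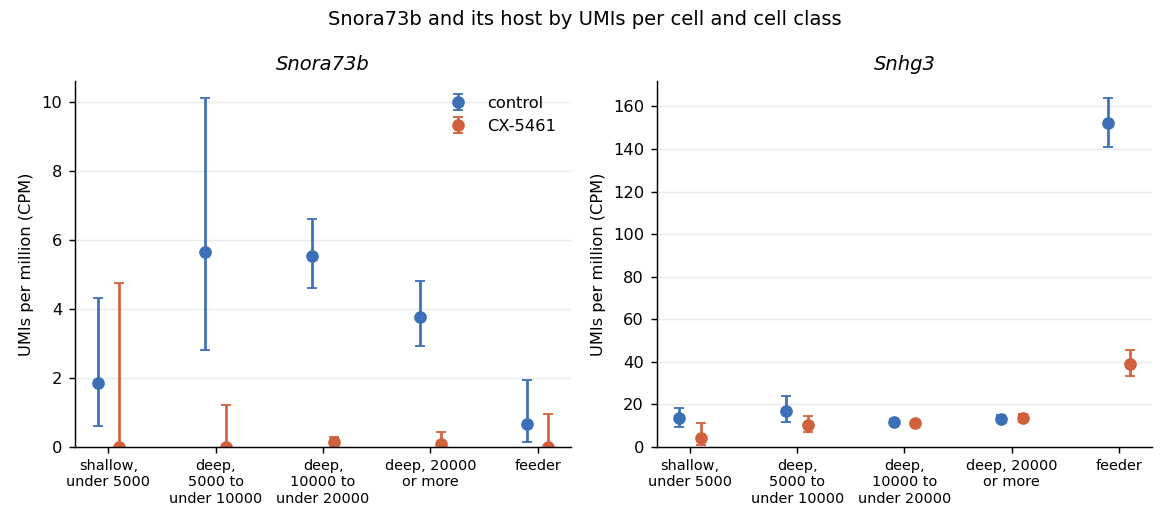
CPM of Snora73b (left) and Snhg3 (right) with exact 95% Poisson intervals in shallow cells, deep ES cells of 3 depth ranges and feeder cells, control in blue and CX-5461 in orange. Snora73b is at or near 0 in every CX-5461 group, with a wide interval in shallow cells, while the intervals of Snhg3 overlap in each deep ES range and its highest level is in control feeder cells at 152 CPM.

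Detection of the host did not differ beyond counting error between cells with and without the snoRNA. In control deep ES cells 29 of 180 cells with a Snora73b UMI also had a Snhg3 UMI (16.1%, 11.1 to 22.3), against 422 of 2269 cells without one (18.6%, 17.0 to 20.3), at median depths of 16217 and 15606 UMIs. After CX-5461 the numbers were 1 of 7 and 632 of 4007. In control feeder cells Snhg3 was high and the snoRNA near 0, with 3 Snora73b UMIs beside 692 Snhg3 UMIs, or 0.434 per 100. The odds of a Snora73b UMI against a Snhg3 UMI were 88.7-fold higher (29.6 to 435) in control deep ES cells than there. The 3 feeder UMIs gave 0.659 CPM (0.136 to 1.93), which is 13.7% (2.80 to 40.6) of the deep ES level. That interval holds the 5.55% of Pou5f1, so the 3 feeder UMIs were not detectably above that share. Their source was not tested. Rcc1, which also encloses Snora73b on the same strand, stood at 42.1 CPM in control deep ES and 10.3 CPM in control feeder cells. In deep ES cells it was at 28.7 CPM after CX-5461, a log2 ratio of -0.92 relative to the median gene. From which of the 2 genes the Snora73b UMIs came was not tested.

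In shallow cells Snora73b had 5 control UMIs, or 1.84 CPM (0.599 to 4.30), and 0 after CX-5461. A count of 0 was taken to allow up to 3 UMIs, here 3.87 CPM, so no difference was detectable at this depth. In feeder cells the counts were 3 and 0, or 0.659 CPM against a limit of 0.764 CPM. No fold is given for either class, since each control level lies under the limit of the CX-5461 library.

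Snora73b was the one snoRNA of these hosts that the libraries captured in number. Of 30 genes annotated as snoRNA or scaRNA (small Cajal body RNA) inside the 8 hosts, 2 had a UMI in the classes described. Snora73b held 218 of the 221 UMIs, and Snora78, inside Snhg9, had the other 3, all in control cells (2 deep and 1 shallow). The 8 of Snhg1, the 10 of Gas5, the 5 of Snhg12, Snord50a and Snord50b of Snhg5, Snord87 of Snhg6 and Snora24 of Snhg8 had 0 UMIs in each class and library. Statements on the hosts below are therefore on the host gene rows and not on the snoRNAs that they release. Whether the host UMIs came from spliced RNA was not tested.

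Rows of other RNAs that mostly lack a poly(A) tail also differed in deep ES cells and are given beside Snora73b, chosen after their values were seen. The other 1506 snoRNA genes summed to 119 control and 68 CX-5461 UMIs, or 2.82 and 1.10 CPM, a 2.56-fold (1.88 to 3.50) lower level. Snora57, the one with the most UMIs, had 66 and 43. The scaRNA genes had 49 and 27 UMIs, the misc_RNA genes 747 and 241, and the 1 rRNA gene with a UMI 1465 and 185, which is 11.6-fold (9.93 to 13.6) lower in CPM. In feeder cells that gene had 165 and 3 UMIs, 47.4-fold (15.9 to 232) lower in CPM. The snRNA genes went the other way, with 32 and 83 UMIs. Histone genes of the Hist1 to Hist4 clusters, whose main transcripts also lack a tail, summed to 4086 and 1418 CPM. In deep ES cells the interval of the Snora73b fold (20.2 to 107) lay above that of each of these groups. It overlaps the feeder interval of the rRNA gene. Since Snora73b was listed on this contrast, nothing is read from its place among them. Whether capture of tailless RNA differed between the libraries was not tested.

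Among the host genes, Snhg8 differed most in deep ES cells and Snhg3 least. The median mitochondrial share of these cells was 1.92% in the control and 4.01% after CX-5461, and its part in the host values was not tested. Snhg8, the host of Snora24, went from 114 CPM (111 to 117) in the control to 54.8 (52.9 to 56.7) after CX-5461, a ratio of 0.481 (0.460 to 0.503). Snhg5, the host of the Snord50 pair, went from 61.7 (59.3 to 64.1) to 37.7 (36.1 to 39.2), a ratio of 0.611 (0.577 to 0.646). The next 3 hosts lay close together in ratio. Snhg6 stood at 65.3 (62.9 to 67.8) and 47.1 (45.4 to 48.9) CPM, with a ratio of 0.721. Gas5, a gene that accumulates in growth-arrested cells, stood at 32.0 (30.3 to 33.7) and 23.5 (22.3 to 24.8) CPM, with a ratio of 0.735. Snhg1, the host of Snord22, stood at 209 (205 to 214) and 158 (155 to 161) CPM, with a ratio of 0.755 (0.734 to 0.777). Their ratio intervals overlap, so their order is within counting error. Snhg12 followed at 72.7 (70.2 to 75.4) and 60.6 (58.7 to 62.6) CPM, a ratio of 0.833 (0.794 to 0.874). Snhg9 had 1 and 2 UMIs in all, and no ratio is given for it.

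A gene was called when its log2 ratio lay at least 1.5-fold from that of the median gene. Of the 8 members with at least 200 UMIs in deep ES cells, 7 were called lower and 0 higher, where 17.1% of all 11668 tested genes were called lower and 21.3% higher. Since the list was chosen on this contrast, nothing is read from that count. Relative to the median gene the log2 ratios were -1.42 for Snhg8, -1.07 for Snhg5, -0.83 for Snhg6, -0.81 for Gas5, -0.77 for Snhg1, -0.62 for Snhg12 and -0.49 for Snhg3. Without that centring, which takes off 0.36, 3 of the 8 were called (Snora73b, Snhg8 and Snhg5), all lower. In that setting 44.0% of all tested genes were called in either direction. This share and those given without centring below hold both directions and were not split. They are therefore no like measure for a count called lower alone. The 8 hosts together made up 568 CPM in the control and 393 CPM after CX-5461. The CPM of Snhg1, Snhg5, Snhg6, Snhg8, Snhg12 and Gas5 was also lower with CX-5461 in each of the 3 depth ranges.

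**Figure D3:**
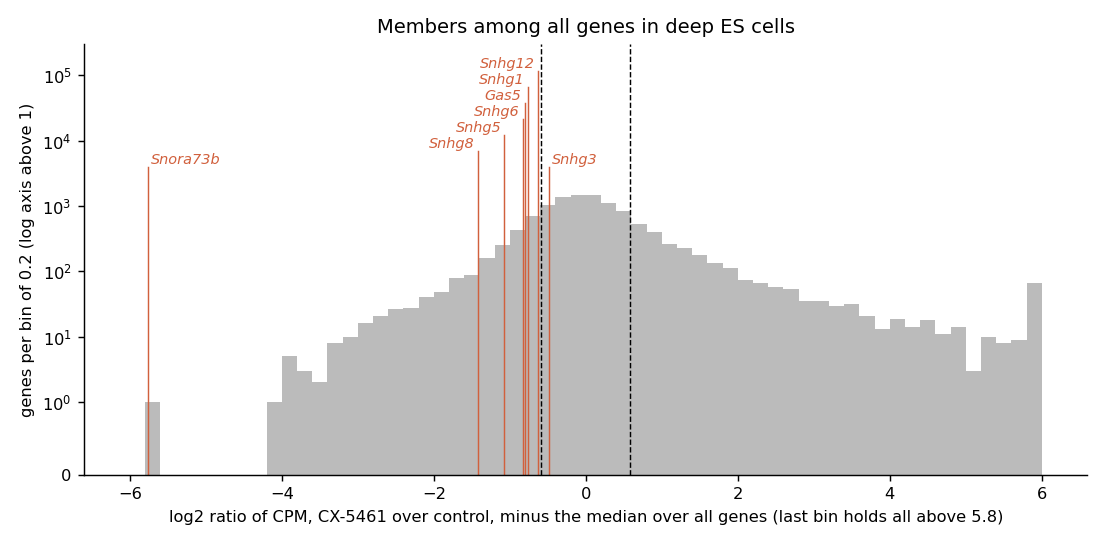
Number of genes (vertical, log axis above 1) by log2 ratio of CX-5461 over control minus the median gene's, for the 11668 genes with at least 200 UMIs in deep ES cells; dashed lines mark 1.5-fold and orange lines the members. Snora73b at -5.77 stands alone at the left end, and the tested hosts lie between -1.42 for Snhg8 and -0.49 for Snhg3.

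In shallow cells the counts were lower. Here 4 members had at least 200 UMIs over both libraries, and all 4 were called lower, where 23.2% of 2095 genes were called lower and 21.0% higher. Snhg8 went from 145 (131 to 160) to 34.8 (23.0 to 50.7) CPM, Snhg5 from 74.5 (64.6 to 85.5) to 27.1 (16.8 to 41.4), Snhg12 from 136 (122 to 150) to 55.5 (40.1 to 74.7) and Snhg1 from 240 (222 to 259) to 151 (125 to 181). The members under 200 UMIs included Gas5 with 167 and 14 UMIs, or 61.6 (52.6 to 71.7) and 18.1 (9.87 to 30.3) CPM, Snhg6 with 149 and 29 and a ratio interval that holds 1 (0.441 to 1.02), and Snhg3 with 36 and 3. Snhg9 had 0 UMIs in both libraries. The control cells had a median depth of 2255 UMIs and the CX-5461 cells one of 4164, so the class holds different cells in the 2 libraries. When cells were restricted to under 3000 UMIs, 2 members had at least 200 UMIs and 0 were called.

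Within the control library 2 hosts stood out in shallow cells. Gas5 was 1.93-fold (1.63 to 2.26) and Snhg12 1.87-fold (1.67 to 2.08) above its deep ES level, while Snhg3 was at 1.06-fold (0.735 to 1.49) and Snora73b at 0.383-fold (0.123 to 0.909). After CX-5461 the shallow level of Gas5 was 0.768-fold (0.419 to 1.29) and that of Snhg12 0.915-fold (0.661 to 1.23) of the deep ES level, with intervals that hold 1. The mitochondrial share of shallow cells is high in both libraries. The fibroblast marker sum in the control was also higher in shallow than in deep ES cells, at 517 (11 of 12 markers detected, Lum at 0) and 228 CPM (12 of 12), as was Col1a1 at 13.6 and 2.09 CPM. The part of either in these values was not tested.

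Feeder cells differed from ES cells most in Gas5 and Snhg3. Gas5 stood at 996 CPM in control and 1019 CPM in CX-5461 feeder cells, 31.1-fold (29.3 to 33.1) and 43.4-fold (40.8 to 46.1) its deep ES level. It had a UMI in 98.6% and 100% of feeder cells and made up 57.2% and 69.0% of the UMIs of the 8 hosts there, against 5.64% and 5.98% in deep ES cells. Snhg3 stood at 152 CPM (141 to 164) in control feeder cells, 12.1-fold (10.8 to 13.6) above deep ES cells. Snhg6 was 2.47-fold (2.27 to 2.68) higher in control feeder cells, Snhg8 1.31-fold (1.21 to 1.42) higher, and Snhg1 and Snhg5 were at 0.793-fold and 0.705-fold. The deep ES level of Gas5 was 3.21% of its feeder level in the control, above the 0.259% of Col1a1.

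The host that differed least in deep ES cells differed most in feeder cells. Snhg3 went from 152 to 39.0 CPM (33.1 to 45.7), a ratio of 0.256 (0.214 to 0.306), and 26 of 3918 tested genes had a lower ratio. Since the list was chosen on values of these tables, nothing is read from that place. The share of feeder cells with a Snhg3 UMI, at 5000 UMIs per cell, was 46.5% (39.4 to 53.7) in the control and 14.3% (9.28 to 20.7) after CX-5461. Rcc1, which shares exons with it, went from 10.3 to 5.35 CPM in feeder cells on 47 and 21 UMIs and from 42.1 to 28.7 CPM in deep ES cells. A single control feeder cell gave 4.77% of the Snhg3 UMIs, and without it the control level was 147 CPM.

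Of the 7 members with at least 200 UMIs in feeder cells, 5 were called lower and 0 higher, where 15.4% of 3918 genes were called lower and 14.0% higher. Snhg8 went from 149 to 65.2 CPM (ratio 0.437), Snhg1 from 166 to 99.6 (0.600), Snhg5 from 43.5 to 30.3 (0.697) and Snhg6 from 161 to 116 (0.718). One control cell gave 21.3% of the Snhg1 UMIs. Without it the control level was 131 CPM and the log2 ratio relative to the median gene -0.56 in place of -0.90, so Snhg1 was no longer called and 4 members were. When the highest cell of each library was left out it was -0.61, past the call. Gas5 did not differ within counting error, at a ratio of 1.02 (0.981 to 1.07). Snhg12 was higher, from 72.1 (64.5 to 80.3) to 109 (98.5 to 119) CPM, a ratio of 1.51 (1.30 to 1.74), though relative to the median gene its log2 ratio of 0.43 was not called. The feeder class also differed in its other content. The fibroblast marker sum was 5356 and 11366 CPM with all 12 markers detected, and the macrophage marker sum was 177 and 16.8 CPM, with Ptprc at 0 after CX-5461. The histone genes summed to 1202 and 2450 CPM. The part of these differences in the host values was not tested.

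**Figure D4:**
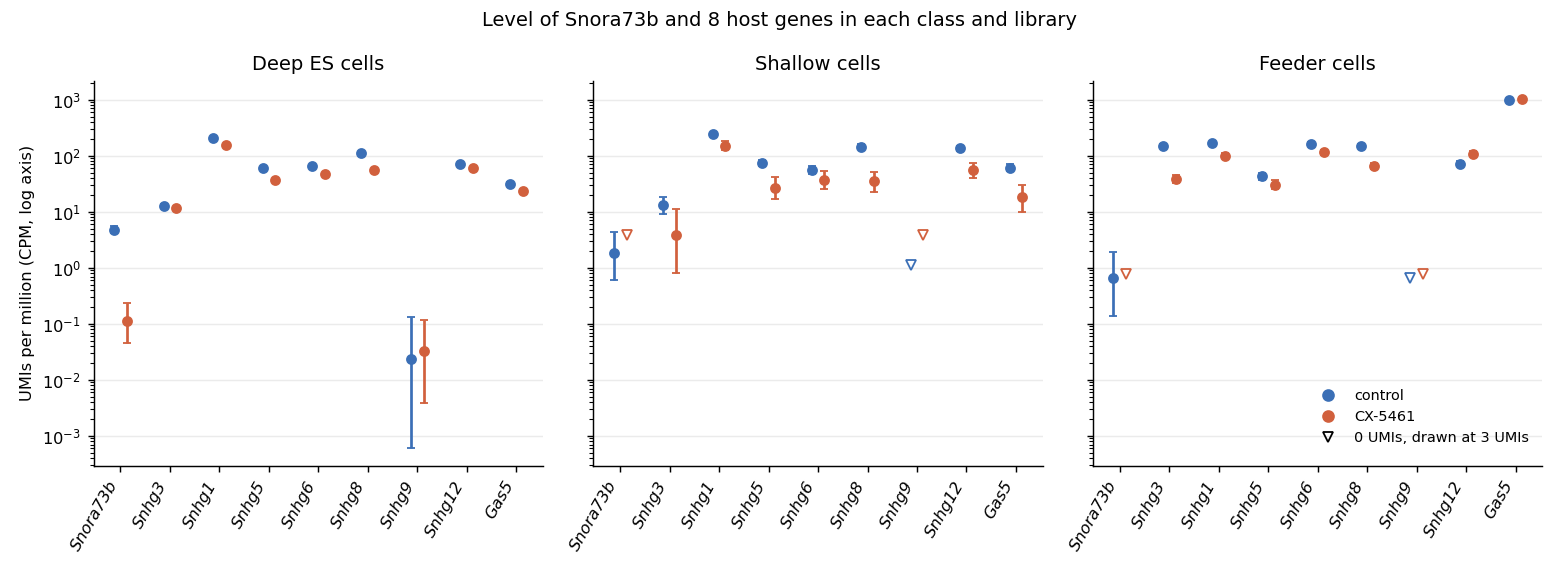
CPM (log axis) of the 9 members in deep ES, shallow and feeder cells, control in blue and CX-5461 in orange, with exact 95% Poisson intervals; open triangles stand for 0 UMIs and are drawn at the level of 3 UMIs. The drop of Snora73b from 4.81 to 0.114 CPM in deep ES cells is far larger than that of any host, and Snhg12 in feeder cells is the host whose CX-5461 interval lies above the control one, at 109 against 72.1 CPM.

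Detection at equal depth gave the same directions in deep ES cells. In deep ES cells thinned to 5000 UMIs the share of cells with a UMI was 63.3% and 51.0% for Snhg1, 40.8% and 24.2% for Snhg8, 30.5% and 25.8% for Snhg12, 27.5% and 21.1% for Snhg6, 24.8% and 16.1% for Snhg5, 15.9% and 11.5% for Gas5 and 6.21% and 5.01% for Snhg3, control first. The intervals of the 2 libraries did not overlap for Snhg1, Snhg5, Snhg6, Snhg8, Snhg12 and Gas5, and overlapped for Snhg3. In feeder cells the shares were 24.2% and 36.0% for Snhg12 and 96.0% and 94.4% for Gas5. There the intervals of the libraries were apart for Snhg3 and overlapped for the other 7 hosts and Snora73b. Before thinning, Snhg1 was found in 91.5% and 85.8% and Snhg8 in 78.8% and 54.3% of deep ES cells.

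**Figure D5:**
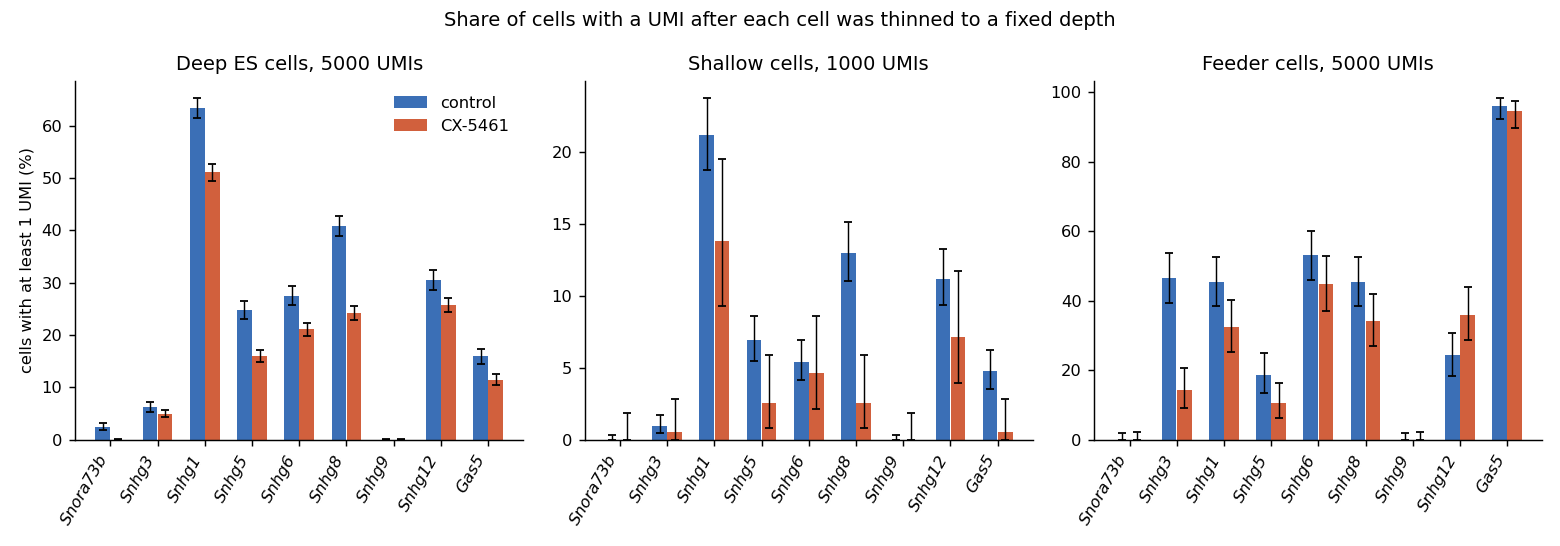
Percentage of cells with at least 1 UMI of each member after each cell was thinned to 5000 UMIs (deep ES and feeder cells) or 1000 UMIs (shallow cells); bars give the share and whiskers the exact 95% Clopper-Pearson interval, and the vertical scale differs between panels. Snhg8 in deep ES cells (40.8% against 24.2%) and Snhg3 in feeder cells (46.5% against 14.3%) show the widest gaps of their panels between control (blue) and CX-5461 (orange).

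Not every Snhg gene followed the members. Of 8 further Snhg genes, 7 had at least 200 UMIs in deep ES cells, of which 3 were called lower and 2 higher. Of all tested genes 17.1% were called lower and 21.3% higher. Without centring 0 of the 7 were lower and 4 higher, where 44.0% of all tested genes were called in either direction. Those lower were Snhg20 (22.0 to 17.5 CPM), Snhg17 (15.6 to 10.6) and, named after its values were seen, Snhg10 (3.25 to 2.42). Snhg11 went from 7.28 to 24.4 CPM, a ratio of 3.36 (2.97 to 3.81). Snhg7os, also named after its values were seen and annotated opposite to Snhg7, went from 14 to 300 UMIs, or 0.332 to 4.87 CPM, a ratio that also depends on how strand was counted, which the sources used here do not give. Snhg15 went from 64.9 to 124 CPM and was not called. The median log2 ratio of the 7 was 0.86, beside 0.36 over all genes and -0.46 over the 8 members tested.

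All other genes that enclose an annotated snoRNA or scaRNA on the same strand were listed as well. Of these 337 genes, 228 were tested in deep ES cells, with 68 called lower (29.8%, against 17.1% of all tested genes) and 17 higher and a median log2 ratio of 0.05. Without centring 31 were lower and 37 higher, so the balance turns with the scaling. Without centring 44.0% of all tested genes in deep ES cells were called in either direction. Restricted, after values were seen, to the 86 genes that enclose a snoRNA with a Snora, Snord or Scarna symbol, 83 were tested, with 37 lower and 0 higher and a median of -0.16, or 18 lower and 6 higher without centring. The genes with the most UMIs were ribosomal protein genes such as Rpl32, at 8791 and 6536 CPM, and Rpl13, at 6964 and 7524 CPM. Of 80 tested cytosolic ribosomal protein genes, 42 were called lower (52.5%) and 0 higher, with a median log2 ratio of -0.28, and 30 and 0 without centring. Rpl41 had the lowest ratio of the 4 with most UMIs, from 11238 to 4372 CPM. In feeder cells, where 15.4% of all tested genes were called lower, 27 of 111 tested hosts were lower and 2 higher, and 32 of 80 ribosomal protein genes lower and 0 higher.

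The proteins that bind the snoRNAs were lower too in part. Beside the 17.1% of all tested genes called lower and the 21.3% called higher, all 4 box C/D proteins were called lower in deep ES cells. Without centring 0 of the 4 were called, where 44.0% of all tested genes were called in either direction. Fbl, the methyltransferase, stood at 241 and 171 CPM and Snu13, which binds the box C/D motif, at 670 and 534. Of the H/ACA proteins, which bind Snora73b and its class, 2 of 4 were called lower, and 1 without centring. In feeder cells, where 15.4% of all tested genes were called lower, 3 of 4 box C/D and 2 of 3 tested H/ACA proteins were called lower. Without centring 1 and 2 were, where 31.7% of all tested genes were called in either direction. Nop10 in deep ES cells went from 596 to 367 CPM and Gar1 from 137 to 106, while Dkc1, the pseudouridine synthase, stood at 155 and 156 and Nhp2 at 701 and 767. Among 10 assembly factors 3 were called lower and 0 higher, and without centring 0 lower and 2 higher. Among 10 factors of nonsense-mediated decay, the pathway that degrades many host RNAs, 3 were called lower and 1 higher, which was Upf3b at 55.8 and 110 CPM. Without centring 2 were lower and 2 higher.

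Across the 6 combinations of class and library, Snora73b and Snhg3 did not run together, with a Pearson r of -0.03 between their log2(CPM + 1) levels. Of 12286 genes with at least 200 UMIs over these combinations, those most like Snora73b were Trnt1 (r = 0.991), Usp46 and Skp1a (both 0.984), and those most like Snhg3 were Nnt (0.990), Hspb6 (0.990) and B130021K23Rik (0.986). These 6 points share their library and differ in depth, so r is only a description.

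A few cells held far more host UMIs than their depth would give. The control deep ES cell with the most Snhg1 UMIs had 105 of them in 11444 UMIs, where the mean share of the other cells gives 2.37, and the next cell had 34. The same cell also had the most Snhg5 (14 UMIs against 0.702) and Snhg12 UMIs (19 against 0.828) of its class, while Snhg3, Gas5 and Snora73b were at 0 in it. In the CX-5461 library the deep ES cell with the most Snhg1 UMIs (67 against 3.74) also had the most Snhg12 UMIs (27 against 1.43). This cell made up 0.687% of the Snhg1 UMIs of its class, and the control cell 1.19%, so neither decides a class value above.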

How the data were processed

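Mouse ES cells on feeders were profiled by 10x Genomics Single Cell 3′ v2 libraries. The authors deposited 1 table of raw UMI counts per condition, genes by barcodes, not normalized. Per the labels the build was mm10 and Seurat 2.3.4 was used, and the study's methods name Bowtie as the aligner of the published droplet pipeline, with HISAT2 in its place for repeat sequences. The annotation of the single-cell reads is not given in the sources used here. Gene IDs were matched to GENCODE M21, 52480 of 54146 with the version and 54079 without it. Barcodes carry no sample, so each condition was 1 library, and no test, SE or p-value was possible.

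With the limits of the study's methods, barcodes under 500 UMIs or over 20% mitochondrial UMIs were left out. More cells of each condition were kept here than the study plots, so the cell sets are not the same. The kept barcodes were clustered with scanpy 1.11.5 (2000 variable genes, 16 principal components, 15 neighbours, Leiden resolution 0.5). The fibroblast-like cluster was taken as feeder cells. Doublets were not called. Counts were summed per class and library and divided by the class total (CPM). Intervals at 95% are exact Poisson for a level, exact conditional binomial for a ratio and Clopper-Pearson for a share. They cover counting error only. A count of 0 allows up to 3 UMIs. A gene with at least 200 UMIs over both libraries was called when its log2 ratio lay at least 1.5-fold from the median of all such genes. Cells were thinned at random to 5000 UMIs (1000 in shallow cells). No pseudocount entered a ratio, and 1 was added to CPM before correlation.

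The members and lists were chosen with earlier results of these data known. The genes named were the members, Rcc1 and the snoRNAs inside the hosts, the 3 genes most like Snora73b and Snhg3, and of each list up to 4 genes with the most UMIs. Alternatives were the TMM factor (edgeR 4.0.16, R 4.3.3), no centring, no minimum, a fold of 2, other limits on depth and mitochondrial share, the mean over cells, thinning, feeder cells by marker share and, added after the data were seen, leaving out each member's highest cell. The scripts ran in Python 3.11.15 with numpy 2.4.6, scipy 1.17.1, pandas 2.3.3 and matplotlib 3.10.9 and were tested on simulated data.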

Additional observations from a re-analysis of the deposited data

Results flagged for a closer look

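Snhg12 moved in opposite directions in deep ES cells and in feeder cells. Its log2 ratio of CX-5461 over control relative to the median gene was -0.62 (-0.69 to -0.56) in deep ES cells, on 3068 and 3737 UMIs, and 0.43 (0.22 to 0.65) in feeder cells, on 328 and 426 UMIs. Both conditions are single libraries, and the difference between the cell types was not tested. The feeder cell with the most Snhg12 UMIs held 3.66% of them in the control and 5.87% after CX-5461, and without these cells the levels were 69.9 and 103 CPM.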

How the results depend on the processing

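No paired analysis was possible because the barcodes carry no sample and each condition is 1 library. For the same reason no replicate could be left out. In deep ES cells 7 members were called, 3 without centring and 3 at a fold of 2, and 6 or 7 under the other 5 settings planned. The shares of all tested genes called in either direction were 38.4%, 44.0% and 19.7%, and 37.9% to 53.2% under those 5. In shallow cells 4 were called, 0 under 3000 UMIs per cell and 7 with no minimum of UMIs. There the shares of all tested genes called were 44.2%, 47.1% and 56.0%. In feeder cells 5 were called, 2 at a fold of 2 and 4 with feeder cells by marker share, beside 29.4%, 11.5% and 29.9% of all tested genes. Leaving out each member's highest cell was tried after the data were seen. It left 7, 4 and 5 called in deep, shallow and feeder cells, and 4 in feeder cells where only the control cell was left out. Without centring the count of 4 in feeder cells held 3 lower and 1 higher, the latter Snhg12, and 31.7% of all tested genes were called. The Snora73b log2 ratio of -5.77 was -7.12 when each cell was thinned to 5000 UMIs, where 1 UMI was left after CX-5461, and lay between -5.97 and -5.41 under the other 7 settings. Its difference from Snhg3, -5.28, lay between -6.43 and -5.23. The difference in the share of deep ES cells with a Snora73b UMI, in percentage points, was -2.51 at 5000 UMIs, -4.88 at 10000 UMIs and -7.18 without thinning. Of the single members, Gas5 in feeder cells went from -0.12 to 0.03 without centring and Snhg9 in deep ES cells, on 3 UMIs, from 0.09 to -0.46 with the mean over cells, neither of them called. Depth limits Snhg9 in every class and Snora73b outside deep ES cells, where at most 5 UMIs were found.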

Other observations

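The cells with the most host UMIs were looked at after their values were seen. In the control deep ES cell with 105 Snhg1 UMIs, the genes of at least 10 UMIs furthest above their mean share were Snhg1 (44.3-fold), Snhg12 (23.0-fold), Snhg15 (20.3-fold) and Snhg5 (19.9-fold), and Zfas1, another snoRNA host, was at 13.1-fold. In the CX-5461 deep ES cell with 67 Snhg1 UMIs, Cnbd2 led at 26.2-fold on 10 UMIs. Snhg12 at 18.8-fold, Snhg1 at 17.9-fold and Snhg15 at 15.3-fold came next, and Zfas1 stood at 11.1-fold, below genes such as Ddit4 at 14.2-fold. A control feeder cell held 161 Snhg1 UMIs (51.1-fold) and 30 Snhg3 UMIs (8.56-fold). A CX-5461 feeder cell had the most Snhg5 (15 UMIs, 19.3-fold), Snhg12 (25, 8.36-fold), Snhg1 (18, 6.47-fold) and Gas5 (125, 4.32-fold) UMIs of its class. The 10 factors of nonsense-mediated decay summed to 4, 15, 4 and 5 UMIs in these 4 cells, where their mean shares give 3.07, 8.17, 4.19 and 4.92. The mitochondrial share of the 4 cells was between 1.44% and 2.22%.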
